A study of Mus musculus with 10 samples.

Results

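E-cadherin and N-cadherin transcripts ran in opposite directions across the liver lobule, and the inhibitor of beta-catenin Ctnnbip1 followed E-cadherin, while the transcript of beta-catenin itself showed no zone difference past the test. The 7 genes described are the rows cdh1, cdh2, ctnnb1, ctnnbip1, ctnna1, ctnnd1 and jup of the deposited tables of unique molecular identifier (UMI) counts. They were chosen by name, as the classical cadherins of hepatocytes and their catenin partners, out of 14812 gene rows. The tables hold 18378 hepatocytes in 10 libraries from livers of male C57BL/6 mice aged 3 months, which had free access to a regular chow diet. The groups are 4 Zeitgeber times (ZT, hours on the light cycle): ZT0 and ZT12 have 3 libraries each, and ZT6 and ZT18 have 2 each. All mice were anaesthetised with ketamine and xylazine, the livers were perfused with collagenase, and hepatocytes were enriched on Percoll before 10x Chromium 3' v2 libraries were made. No genotype or drug separates the groups. The number of mice behind a library is not in the labels, so p-values measure only the spread between these libraries, which may be technical in part.

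Cadherins are calcium-dependent adhesion molecules that join neighbouring cells by binding the same cadherin on the facing membrane. Inside the cell, beta-catenin or plakoglobin binds the cadherin tail and alpha-catenin couples the complex to actin, while p120-catenin binds near the membrane and holds the cadherin at the surface. Beta-catenin has a separate role in Wnt signalling: it enters the nucleus, binds T-cell factor (TCF) proteins and turns on target genes. In the liver this signalling is strongest around the central vein and sets the pericentral gene programme, and ICAT, the product of Ctnnbip1, blocks the binding of beta-catenin to TCF. Hepatocytes carry both E-cadherin and N-cadherin.

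The libraries held 710 to 2860 cells and 1454623 to 7144803 UMIs, with median depths of 1588 to 2662 UMIs per cell. Cells were ordered within each library by 8 periportal landmarks (Ass1, Cyp2f2, Hal, Asl, Pigr, Ftcd, Hsd17b13 and Ctsc) against 8 pericentral landmarks (Gulo, Cyp2e1, Oat, Cyp1a2, Rgn, Lect2, Aldh1a1 and Mgst1), none of them among the 7 genes. The order was cut into 3 zones (pericentral, middle and periportal) and into eighths, each of equal cell number. Levels are UMIs of a gene per 1000000 UMIs of the summed cells (CPM), not corrected for transcript length. Replicate C of ZT0 and replicate C of ZT12 had the lowest log2 ratios of periportal to pericentral landmark UMIs, -2.34 and -2.09. The other 8 libraries ran on from -1.90 in replicate A of ZT12 to -0.62. With 1 common order for all cells, 56.4% and 49.3% of the cells of these C replicates fell in the pericentral zone. In replicate A of ZT12 the share was 45.8%. The labelled cell type held: all 5 hepatocyte markers were abundant, together 32252 to 66209 CPM. Among cholangiocyte markers Epcam, Krt19 and Krt7 had 3, 2 and 3 UMIs in all libraries together, and Sox9 had 565. No cell profile was identical between libraries.

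The first question was how the cadherins are distributed between the central vein and the portal triad. Cdh1 (E-cadherin, chr8:106603351-106670246, plus strand, mm10, GENCODE) was nearly absent from the pericentral zone and abundant in the periportal zone. In the pericentral zone its level ranged from 0 to 21.2 CPM, with a median of 4.13, over 10 libraries. In the periportal zone it ranged from 65.9 to 158 CPM, with a median of 119. The groups did not overlap, and replicate A of ZT0 had the highest level in both. Replicates A and C of ZT12 had no Cdh1 UMI in the pericentral zone, which allows up to 6.53 and 4.70 CPM there. Cdh2 (N-cadherin, on chromosome 18) ran the other way and more shallowly, from 72.9 to 260 CPM (median 94.6) in the pericentral zone to 40.5 to 93.4 CPM (median 64.8) in the periportal zone. These ranges overlapped between libraries, but the pericentral level was the higher one in 10 of 10 libraries. The highest pericentral values, 202 and 260 CPM, came from the C replicates of ZT0 and ZT12.

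With libraries as a block, the log2 difference between the periportal and the pericentral zone was 4.21 ± 0.18 (SE) for Cdh1, adjusted p = 1.26e-19 (edgeR quasi-likelihood, Benjamini-Hochberg over 8907 genes, landmarks included). It was positive in 10 of 10 libraries. That of Cdh2 was -0.82 ± 0.09, adjusted p = 1.23e-08, which is a 1.76-fold lower periportal level. Signs in single libraries, here and below, are read from CPM, without the TMM scaling that the edgeR estimates carry. Without the C replicates of ZT0 and ZT12 the differences were 3.90 and -0.65, and both stayed past the threshold. Of the 7 genes, 5 passed the test, 4 of them higher periportally and 1 higher pericentrally. Over all genes tested, 24.6% passed, with 11.8% higher periportally and 12.8% higher pericentrally. The median zone difference of the 7 genes was 0.25 on the log2 scale, against -0.01 over all genes tested. Cdh1 ranked 5 of 8891 from the periportal end. Scaling by library size alone moved the median of all genes to -0.10 and the periportal share of the calls from 48.0% to 27.9%; it left 4 of the 7 genes called.

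**Figure D1:**
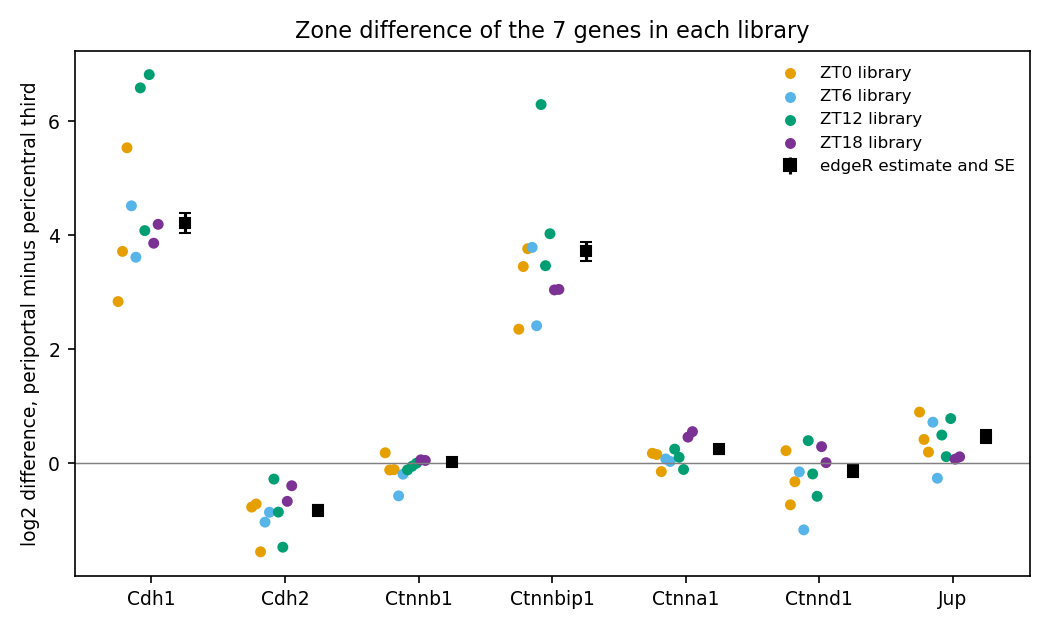
Log2 difference between the periportal and pericentral zones (y axis, log2 of CPM plus 1) for each of the 7 genes (x axis). Each coloured point is 1 library, and black squares with bars are edgeR estimates with SE, which carry a TMM scaling that the points lack. Cdh1 and Ctnnbip1 lie above 2 in all 10 libraries, Cdh2 lies below 0 in all 10, Jup lies above 0 in 9 and Ctnna1 in 8, and Ctnnb1 and Ctnnd1 lie above 0 in 4.

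The 2 cadherins changed over both steps between the 3 zones. Cdh1 rose from the pericentral to the middle zone by 2.93 ± 0.30 on the log2 scale (adjusted p = 1.03e-10, edgeR) and from the middle to the periportal zone by 1.29 ± 0.18 (adjusted p = 4.11e-07). Cdh2 fell by 0.49 over the first step (SE 0.08, adjusted p = 1.40e-05) and by 0.34 over the second (SE 0.09, adjusted p = 0.0137); without replicate A of ZT0 or replicate A of ZT6 the second step missed the threshold, with adjusted p = 0.0501 and 0.0561. In each step 3 of the 7 genes passed, namely Cdh1, Cdh2 and Ctnnbip1, and 14.5% and 6.16% of all genes passed the first and the second step. The difference between the steps passed for 0 of the 7 genes by edgeR and for 0.664% of all genes. It had an unadjusted p below 0.05 for 2 of the 7, Cdh1 (-1.64 ± 0.43, adjusted p = 0.0558) and Ctnnbip1 (-0.90 ± 0.34, adjusted p = 0.361), and it was not run with another tool.

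Over eighths of the order the mean level of Cdh1 was 1.80 ± 2.27 CPM (SD, n = 10) at the central vein, 40.6 ± 35.1 in the fourth eighth, 92.7 ± 40.6 in the sixth and 127 ± 42.6 at the portal end. The mean level rose at each of these positions, but the ranges of neighbouring eighths overlapped. Cdh2 was 141 ± 77.2 CPM in the first eighth, 94.6 ± 38.4 in the fourth, 69.5 ± 28.7 in the sixth, 56.3 ± 21.0 in the seventh and 61.4 ± 12.9 in the last. In the last eighth Cdh2 was still at 42.3 CPM or more in every library, whereas Cdh1 was at 6.57 CPM or less in every library in the first. The centre of mass over eighths, whose midpoint marks an even distribution, was 6.43 ± 0.44 for Cdh1, 6.31 ± 0.32 for Ctnnbip1 and 3.88 ± 0.26 for Cdh2 (SD, n = 10). It lay between 4.33 and 4.74 for the means of the other 4 genes.

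**Figure D2:**
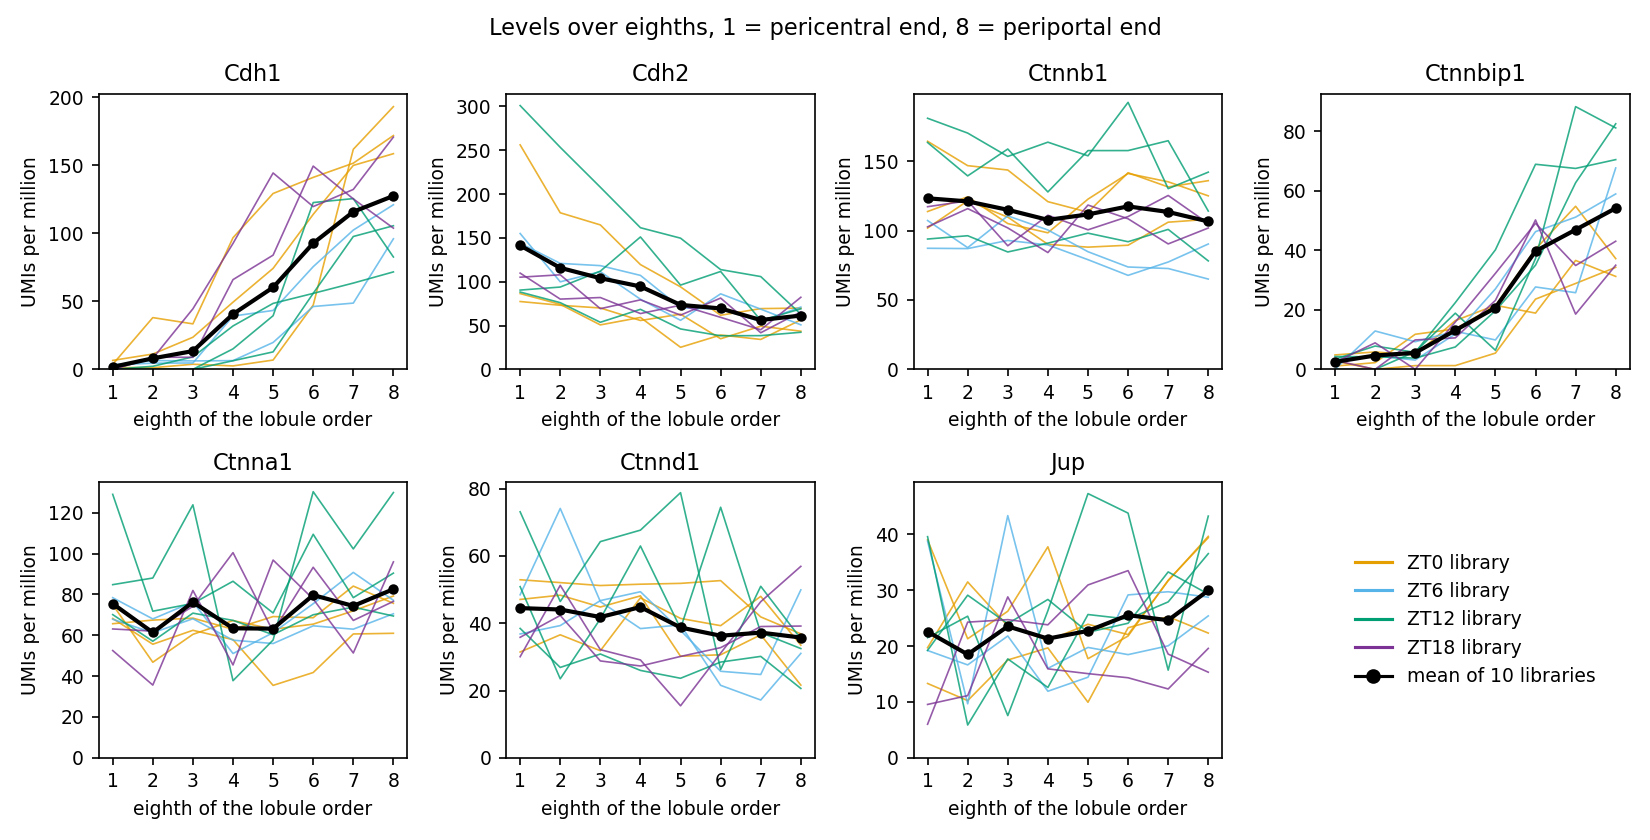
Level in CPM (y axis, each panel from 0) over 8 equal parts of the cell order (x axis, 1 is the pericentral and 8 the periportal end) for the 7 genes. Thin lines are single libraries coloured by time and the black line is the mean of 10. Cdh1 and Ctnnbip1 climb from near 0, Cdh2 declines to means of 56.3 and 61.4 in the last 2 parts, Jup runs from a mean of 18.5 in the second part to 29.9 in the last, and the means of Ctnnb1, Ctnna1 and Ctnnd1 change less steeply than those of the cadherins.

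The share of Cdh1 among the UMIs of both cadherins describes the switch within each library, although 3' capture may differ between the transcripts, so the share is not a ratio of transcripts or proteins. It averaged 1.63% ± 2.42 (SD, n = 10) in the first eighth, 29.4% ± 23.1 in the fourth, 56.1% ± 16.1 in the sixth and 66.3% ± 8.05 in the last. The libraries differed most in the middle of their own orders. In the fourth eighth the share ran from 2.06% in replicate C of ZT0 to 63.4% in replicate A of ZT0, and in the last eighth only from 55.8% to 79.8%. Cdh1 first exceeded 50% in the fourth eighth in replicate A of ZT0 and both ZT18 libraries, and in the seventh or eighth in replicate C of ZT0, replicate B of ZT6 and replicate A of ZT12. Early crossings thus came from ZT0 and ZT18 and late ones from 3 of the 4 times. The same eighth need not be the same lobule position in libraries of different composition. With 1 common order, 56.4%, 39.1% and 45.8% of cells were pericentral in these late libraries, in the order named. In the early ones, replicate A of ZT0 and A and B of ZT18, the shares were 30.4%, 23.8% and 29.0%. Replicate C of ZT12, at 49.3%, crossed in the sixth eighth. In the middle zone of the common order the early libraries held 258 Cdh1 and 119 Cdh2 UMIs (A of ZT0), 74 and 73 (A of ZT18) and 68 and 83 (B of ZT18). The late ones held 48 and 77 (C of ZT0), 23 and 68 (B of ZT6) and 15 and 42 (A of ZT12) there. The libraries thus still differed at common cut points, and the cause of the spread was not tested. The log2 ratio of Cdh1 to Cdh2 (1 CPM added to each) rose from the pericentral to the periportal zone by 3.60 to 7.08, with a mean of 4.89 ± 1.04 (SD, n = 8), in the libraries with a pericentral Cdh1 UMI. In replicates A and C of ZT12, which had none, it rose by at least 4.14 and 6.05, taking 3 UMIs per library as the limit. With the added 1 CPM standing in for those zeros the mean over all 10 was 5.43 ± 1.49, and an exact two-sided sign-flip permutation test gave p = 0.00195, the smallest p that 10 libraries can give. That p follows from the signs already given for each cadherin and is no further evidence.

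**Figure D3:**
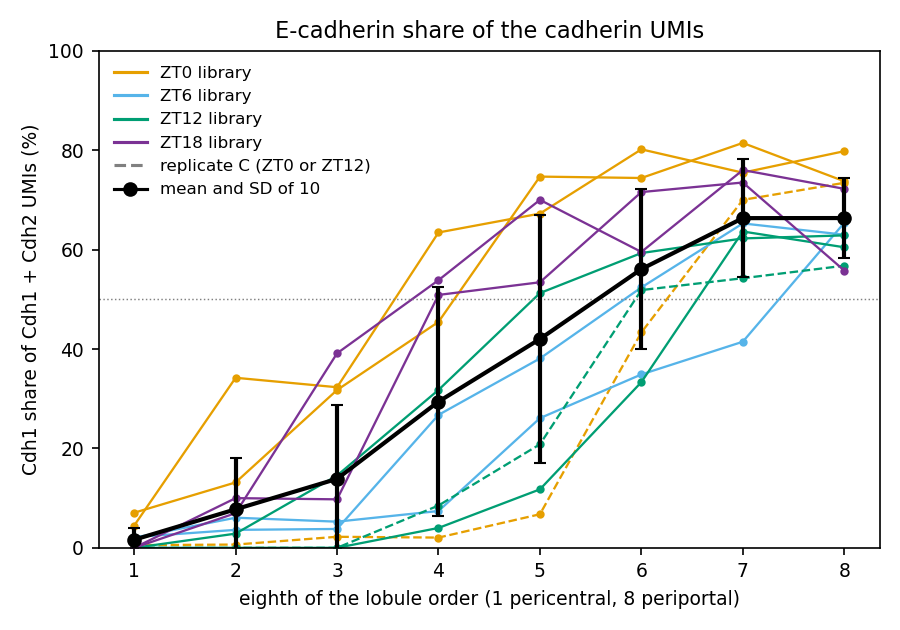
Share of Cdh1 in the summed UMIs of Cdh1 and Cdh2 (y axis, percent) over the eighths of the cell order (x axis). Thin lines are libraries coloured by time, dashed for replicate C, and the black line gives the mean and SD of 10. Libraries spread from 2.06% to 63.4% in the fourth eighth and draw together to between 55.8% and 79.8% at the portal end.

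Single cells showed the same course. After thinning to 1500 UMIs, which left out 4939 of 18378 cells (1402, 1356, 1073 and 1108 from ZT0, ZT6, ZT12 and ZT18), a Cdh1 UMI was found in 0.199% ± 0.419 of cells (SD, n = 10) in the first eighth and in 16.1% ± 6.87 in the last. Without thinning the shares were 0.449% and 26.7%, at median depths of 1972 and 2161 UMIs. For Cdh2 the thinned shares were 19.8% ± 9.99 and 8.18% ± 2.42, and the unthinned ones 25.5% and 14.4%. No other cell type was numerous enough here to give a background share; the first eighth, with 4 Cdh1-positive cells of 1674 after thinning, is the lowest level seen. In the last eighth 100 of 2292 cells held a UMI of both cadherins, 624 held Cdh1, 328 held Cdh2 and 1440 held neither, so most cells gave no reading for either gene.

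Markers of other cells moved in part with the zones. The summed cholangiocyte markers averaged 4.65 CPM in the pericentral and 18.2 CPM in the periportal zone, nearly all of it Sox9. Without the 529 cells that held a UMI of Epcam, Krt19, Krt7 or Sox9, the zone difference of Cdh1 was 4.29 (adjusted p = 3.28e-20, edgeR), as large as with them. The summed endothelial markers averaged 10.9 CPM pericentrally and 6.32 CPM periportally, with 2 of 7 at 0. Without the 3686 cells that held a UMI of any other cell type's marker (Sox9 and Ecm1 not counted; Alas2 alone had 3478 UMIs), the difference of Cdh2 was -0.81 (adjusted p = 3.35e-08). A lower level in a sum of cells can mean fewer cells with the transcript or less of it per cell, which cannot be told apart at this depth.

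Ctnnbip1 (ICAT, chr4:149518236-149566437, plus strand, mm10) shared the periportal position of Cdh1. Its level in the pericentral zone ranged from 0 to 7.14 CPM, with a median of 3.24. In the periportal zone it ranged from 30.5 to 77.2 CPM, with a median of 44.7, and the groups did not overlap. The zone difference was 3.72 ± 0.17 on the log2 scale (adjusted p = 9.96e-19, edgeR), positive in 10 of 10 libraries and 14 of 8891 from the periportal end. It rose by 2.31 ± 0.24 over the first step and by 1.41 ± 0.14 over the second (adjusted p = 1.34e-10 and 7.57e-11). Over eighths the mean was 2.50 ± 1.66 CPM in the first, 13.1 ± 5.95 in the fourth, 39.7 ± 14.8 in the sixth and 54.2 ± 20.3 in the last (SD, n = 10). Ctnnb1 (beta-catenin, chr9:120929216-120960507, plus strand, mm10), the protein that ICAT binds, did not pass the zone test. Its pericentral level was 90.5 to 163 CPM (median 111) and its periportal level 70.5 to 151 CPM (median 110). The ranges overlapped, except that the periportal values of both ZT6 libraries lay below every pericentral value, and replicate A of ZT12 was highest in both zones. The zone difference of Ctnnb1 was 0.02 ± 0.07 (adjusted p = 0.890), with an approximate 95% interval of -0.12 to 0.16, and was positive in 4 of 10 libraries.

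The stretches upstream of the starts of these 2 genes are shown side by side because 1 gene differs steeply between the zones and the other does not pass the test, and because TCF proteins, the nuclear partners of beta-catenin, are known to bind a core of the letters CTTTG. They are the first 240 bases of RefSeq's 300-base promoter windows (250 bases before to 50 after the start, GRCm38.p6), with the core in capitals on whichever strand it reads. No GENCODE exon overlaps either stretch, and that of Ctnnb1 lies in an intron of a transcript that starts further upstream. Neither this core nor its longer form CTTTGA was in the Ctnnb1 window, and the Ctnnbip1 window held 1 CTTTG on the minus strand, 199 bases before the start, and no CTTTGA. Each gene also has a second window at another start (chr4:149544867-149545166 and chr9:120933328-120933627, not shown), and neither of those held a CTTTG.
Ctnnbip1, chr4:149517991-149518230, plus strand: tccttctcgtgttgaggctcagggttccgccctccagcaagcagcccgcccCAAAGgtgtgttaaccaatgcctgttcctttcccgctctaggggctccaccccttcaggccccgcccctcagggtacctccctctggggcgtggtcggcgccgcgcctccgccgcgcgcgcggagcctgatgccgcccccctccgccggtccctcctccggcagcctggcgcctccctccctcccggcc
Ctnnb1, chr9:120933150-120933389, plus strand: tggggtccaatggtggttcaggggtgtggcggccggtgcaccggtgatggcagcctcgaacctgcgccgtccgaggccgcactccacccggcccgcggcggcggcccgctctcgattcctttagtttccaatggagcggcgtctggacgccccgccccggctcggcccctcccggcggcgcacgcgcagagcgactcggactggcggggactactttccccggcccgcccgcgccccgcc
On either strand CTTTG was in 53.9% (17718) and CTTTGA in 5257 of 32851 promoter windows of that length. The GC contents of the 2 full windows shown in part were 73.3% (Ctnnbip1) and 75.3% (Ctnnb1), against a mean of 53.8% over all windows. In the second windows of these genes they were 59.0% and 75.0%.

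The other partners differed little between the zones. Jup (plakoglobin, a beta-catenin relative of desmosomes and adherens junctions, chr11:100368958-100397763, minus strand) ranged from 12.4 to 28.8 CPM (median 19.5) pericentrally and from 16.8 to 33.2 CPM (median 28.5) periportally. It was higher periportally in 9 of 10 libraries, by 0.47 ± 0.11 on the log2 scale (adjusted p = 0.00174, edgeR), and in cells of at least 3000 UMIs alone the difference was 0.52 and did not pass (adjusted p = 0.0610). Ctnna1 (alpha-catenin, the link to actin, on chromosome 18) ranged from 53.0 to 100.1 CPM pericentrally and from 53.3 to 119 CPM periportally. It was higher periportally in 8 of 10 libraries, by 0.25 ± 0.08 (adjusted p = 0.0139), a call that was lost with library size alone (0.15, adjusted p = 0.155), between the outer eighths (0.24, adjusted p = 0.142), in cells of at least 3000 UMIs (0.27, adjusted p = 0.207) and without the ZT18 libraries (0.18, adjusted p = 0.120). Ctnnd1 (p120-catenin, chr2:84600071-84650765, minus strand) ranged from 31.3 to 61.1 CPM pericentrally and from 23.9 to 49.1 CPM periportally. Its difference of -0.13 ± 0.11 (adjusted p = 0.429) did not pass, with an approximate 95% interval of -0.34 to 0.08.

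The second question was whether the levels follow the time of day. Summed over all cells, Cdh1 was 97.4, 71.8 and 51.0 CPM in replicates A, B and C of ZT0, and 49.0 and 30.5 CPM in A and B of ZT6. It was 40.6, 35.8 and 47.7 CPM in A, B and C of ZT12, and 93.4 and 70.9 CPM in A and B of ZT18. All 5 libraries of ZT0 and ZT18 lay above all 5 of ZT6 and ZT12, with the lowest of the former at 51.0 and the highest of the latter at 49.0. Cdh1 alone of the 7 genes passed the test of a 24-h rhythm, with an amplitude of 0.75 on the log2 scale, a fitted peak at ZT 20.8 and adjusted p = 0.0243 (edgeR over 8907 genes, of which 5.13% passed). The fitted peak was 2.84 times the trough. Leaving out 1 library at a time gave adjusted p of 0.00639 to 0.0746, and the call was lost without replicate B of ZT6 (0.0720), A of ZT12 (0.0527), B of ZT12 (0.0666) or A of ZT18 (0.0746). Cdh1 was also the 1 gene of 7 past the test of any difference among the 4 times (adjusted p = 0.0360, 6.58% of all genes); this call was lost in 7 of 10 fits that left out 1 library (adjusted p up to 0.118), with library size alone (0.0594), without both ZT18 libraries (0.0974) and with the landmark ratio of each library as a covariate (0.0540).

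In the order of its levels, ZT18 (82.1 ± 15.9 CPM, n = 2) and ZT0 (73.4 ± 23.2, n = 3) overlapped, as did ZT12 (41.4 ± 5.97, n = 3) and ZT6 (39.7 ± 13.0, n = 2). In the periportal zone alone Cdh1 was 144 to 158 CPM in the ZT0 libraries and 127 to 147 in those of ZT18, against 69.5 to 102 in ZT6 and 65.9 to 112 in ZT12, with no overlap between these pairs of times. The rhythm there had an amplitude of 0.60 (adjusted p = 0.0146, edgeR), and 0.61 (adjusted p = 0.0178) where that zone was cut at common points for all libraries. In the pericentral zone, with 103 Cdh1 UMIs in all, the fitted amplitude was 1.36 and did not pass (adjusted p = 0.173). The libraries also differ in the column of sample indices named in the labels, and both ZT18 libraries used a column of their own. Within column 3 the level was 97.4 CPM at ZT0 and 40.6 at ZT12, within column 5 it was 51.0 and 47.7, and within column 7 it was 71.8 at ZT0, 49.0 and 30.5 at ZT6 and 35.8 at ZT12. Column 4 held ZT18 only, so that time and that column cannot be told apart. With the column as a block the amplitude of Cdh1 was 0.60 (adjusted p = 0.0387, edgeR). Both ZT18 libraries set only the term of their own column, so that amplitude rests on ZT0, ZT6 and ZT12. This setting called 623 of 8907 genes, 3 of the 7 among them, against 457 without the block.

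The summed cholangiocyte markers moved with Cdh1 over time: 17.4 to 32.5 CPM in the ZT0 libraries and 11.6 to 17.3 in those of ZT18, against 0.773 to 4.27 in ZT6 and 3.44 to 6.53 in ZT12, again nearly all Sox9. Without the 529 cells that held any of these markers, the Cdh1 amplitude was 0.75 (adjusted p = 0.0333, edgeR), and it was 0.71 (adjusted p = 0.0244) with the landmark ratio of each library as a covariate.

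Cdh2 did not pass either test of time. It was 57.9, 54.0 and 130 CPM in A, B and C of ZT0, 95.1 and 87.7 in A and B of ZT6, 94.2, 56.1 and 168 in A, B and C of ZT12, and 75.1 and 73.8 in A and B of ZT18. The 2 highest values were the C replicates, the libraries richest in pericentral cells, and the lowest was replicate B of ZT0. In the pericentral zone of the common order the C replicates of ZT0 and ZT12 stood at 170 and 231 CPM, against 75.3 to 128 in the others. In its middle zone they stood at 73.7 and 123 CPM, against 49.7 to 110 in the others. The cause of their high levels was not tested. The fitted amplitude of Cdh2 was 0.16 (adjusted p = 0.844, edgeR). With the index column as a block, an amplitude that rests on ZT0, ZT6 and ZT12, it was 0.69 (adjusted p = 0.0437, edgeR). Ctnnbip1 was 18.2, 22.3 and 11.5 CPM in A, B and C of ZT0, 25.6 and 21.6 in A and B of ZT6, 34.4, 36.5 and 27.6 in A, B and C of ZT12, and 19.8 and 24.3 in A and B of ZT18. All 3 libraries of ZT12 lay above the other 7, and in the periportal zone they stood at 66.3 to 77.2 CPM against 30.5 to 53.0 in the others. Its amplitude of 0.39, with a fitted peak at ZT 11.9, had adjusted p = 0.185 (unadjusted 0.0292, edgeR) and did not pass. With the index column as a block, again from ZT0, ZT6 and ZT12, the amplitude of Ctnnbip1 was 0.50 (adjusted p = 0.0206, edgeR). Of the other 4 genes Ctnnb1 ranged from 83.8 to 159 CPM, Ctnna1 from 55.9 to 96.9, Ctnnd1 from 28.1 to 55.7 and Jup from 15.9 to 29.5 over the 10 libraries, and their rhythm tests gave adjusted p of 0.685 to 0.920.

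**Figure D4:**
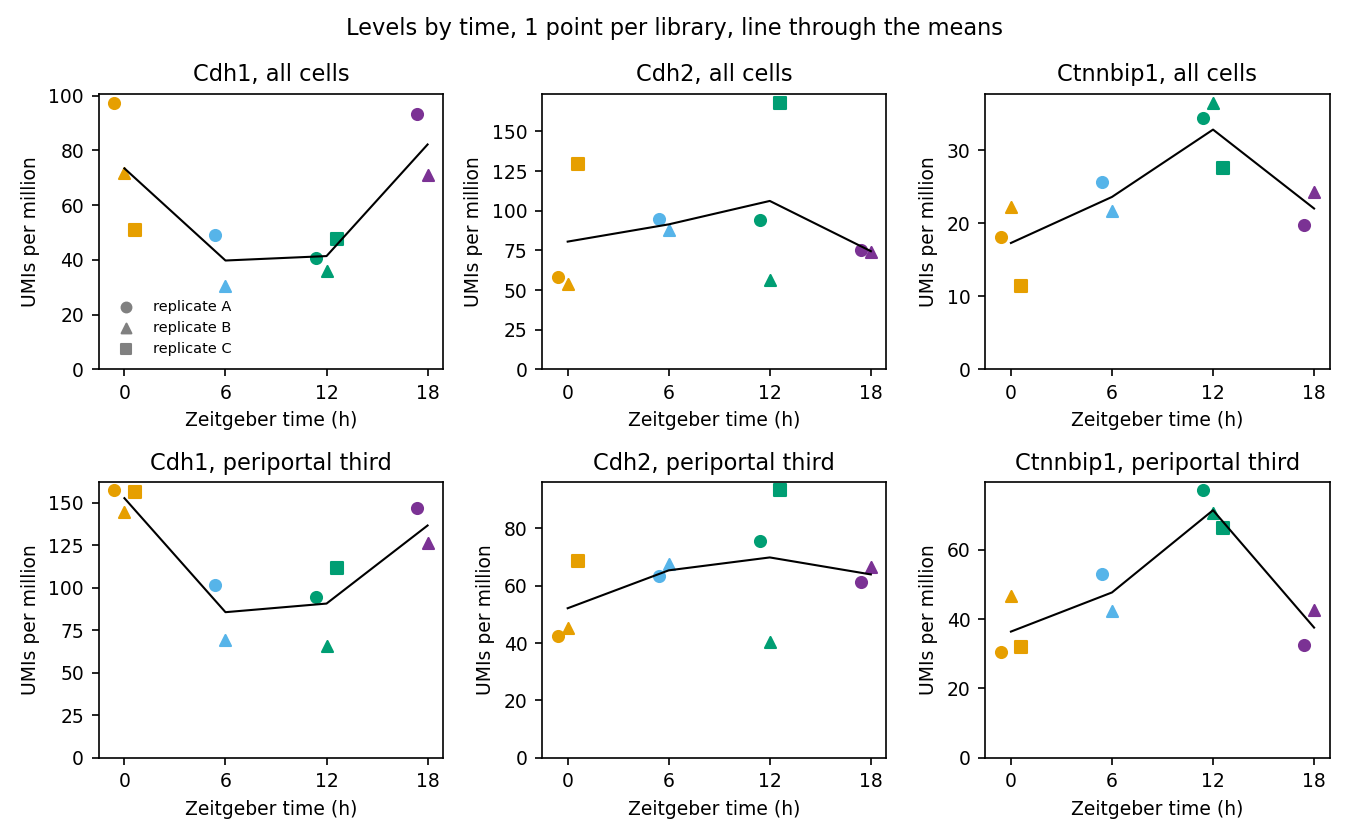
Level in CPM (y axis, from 0) at each Zeitgeber time (x axis, hours) for Cdh1, Cdh2 and Ctnnbip1, over all cells (top) and in the periportal zone (bottom). Each point is 1 library, shaped by replicate letter, and the line joins the means. Cdh1 is at 51.0 or above at ZT0 and ZT18 and at 49.0 or below at ZT6 and ZT12, the 3 ZT12 libraries are highest for Ctnnbip1, and the C replicates are highest for Cdh2.

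The zone differences were then compared between the times. Cdh1 was higher periportally at each, by 3.89 ± 0.23, 4.60 ± 0.45, 5.33 ± 0.45 and 4.26 ± 0.38 (SE) on the log2 scale at ZT0, ZT6, ZT12 and ZT18. Ctnnbip1 was too, by 3.56 ± 0.29, 3.58 ± 0.38, 4.13 ± 0.31 and 3.41 ± 0.44. Cdh2 was lower periportally by -0.96 ± 0.15, -0.85 ± 0.20 and -0.87 ± 0.17 at ZT0, ZT6 and ZT12, and its difference of -0.45 ± 0.21 at ZT18 did not pass (adjusted p = 0.262, edgeR). Jup passed at ZT0 (0.59 ± 0.18, adjusted p = 0.0219) and Ctnna1 at ZT18 (0.60 ± 0.18, adjusted p = 0.0338), and neither passed at another time. The zone tests passed for 13.2%, 6.79%, 9.8% and 6.42% of all genes in the same order of times. The test of the difference between times passed for 0.0675% of all genes and for 0 of the 7, whether by edgeR (lowest adjusted p = 0.912) or by DESeq2, and 0 of the 7 had an unadjusted p below 0.05 with either tool. On simulated counts it recovered 55.2% of zone differences that varied over the day with an amplitude of 1 log2 unit. At an amplitude of 0.5 it recovered 19.4%, so a change of that size could be missed.

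The genes closest to each steep pattern were found by Pearson's correlation over 80 values (8 eighths in 10 libraries, log2 of CPM plus 1, library means removed) among 4318 genes that are neither landmarks nor among the 7; the values share libraries and order, so the correlations are descriptions. Closest to Cdh1 were Alb (albumin, r = 0.949), Trf (transferrin, 0.948), Hsd17b6 (a hydroxysteroid dehydrogenase, 0.945), Hpx (haemopexin, 0.942) and Serpina12 (a serpin, 0.936). Closest to Cdh2 were Chp1 (0.842), Phyh (a peroxisomal hydroxylase, 0.839), Sord (sorbitol dehydrogenase, 0.828), Cyb5a (cytochrome b5, 0.822) and Acsl1 (an acyl-CoA synthetase, 0.821). Closest to Ctnnbip1 were Aldh1b1 (an aldehyde dehydrogenase, 0.895), Hsd17b6 (0.893), Serpina3k (0.883), Trf (0.880) and Hpx (0.875). Cdh1 and Ctnnbip1 correlated at 0.875 with each other, and Cdh1 and Cdh2 at -0.76.

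Other junction genes were read from 5 lists. Over all genes tested 11.8% were higher periportally and 12.8% pericentrally, which are the shares to set beside each count. Of 27 partners of adherens junctions and desmosomes, 20 were tested and 7 were higher periportally, 0 pericentrally by edgeR; their median difference was 0.16 on the log2 scale, against -0.01 over all genes tested. The named ones were Ppl (periplakin, a desmosomal linker, 1.38 ± 0.23, from 3.24 to 8.34 CPM), Actn1 (alpha-actinin, 0.45 ± 0.12), Nectin3 (a nectin adhesion molecule, 0.43 ± 0.08) and Lima1 (an actin binder, 0.34 ± 0.09). In cells of at least 3000 UMIs the differences of Actn1 (0.63, adjusted p = 0.0737) and Lima1 (0.18, adjusted p = 0.575) did not pass, nor did that of Actn1 with DESeq2, between outer eighths or with periportal landmarks alone (adjusted p = 0.0590, 0.131 and 0.0926). Of 18 other cadherins 5 were tested and all 5 passed, 4 periportally and 1 pericentrally (median 0.36): Celsr1, a planar polarity cadherin, rose from 5.64 to 13.4 CPM (1.38 ± 0.20), and Clstn3, a calsyntenin, fell from 12.1 to 2.38 CPM (-1.89 ± 0.25). Fat1 (0.62 ± 0.15), Cdhr5 (0.36 ± 0.12) and Pcdh1 (0.35 ± 0.12) were the other 3 and had a periportal sign in 8, 8 and 6 of 10 libraries; they fell outside the naming rule and were named after their values were seen.

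Of 22 tight and gap junction genes 17 were tested, 10 higher periportally and 2 pericentrally (median 0.25), against 11.8% and 12.8% of all genes tested. Cldn2, a pore-forming claudin, was the steepest and pericentral, falling from 86.0 to 13.8 CPM (-2.52 ± 0.12, adjusted p = 8.92e-18), and Pard3, a polarity scaffold, fell slightly (-0.30 ± 0.09). F11r (junctional adhesion molecule A, 1.12 ± 0.10), Cldn14 (0.86 ± 0.17), Cldn1 (a sealing claudin, 0.54 ± 0.10) and Cxadr (0.53 ± 0.08) were higher periportally. In cells of at least 3000 UMIs Cldn1 (0.37, adjusted p = 0.0637) and Pard3 (-0.37, adjusted p = 0.0616) did not pass, and Pard3 was also lost without replicate B of ZT12 (adjusted p = 0.0545). Cldn1 and Cldn2 thus lay on opposite sides, as Cdh1 and Cdh2 did. With library size alone the calls were 6 and 2 for these genes, 6 and 0 for the adherens junction list and 2 and 1 for the other cadherins.

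Around beta-catenin, 22 of 29 genes of the destruction complex and nuclear partners were tested. Of these, 2 were higher periportally and 4 pericentrally (median -0.04), or 1 and 6 with library size alone. Over all genes tested 11.8% were higher periportally and 12.8% pericentrally, so as a set this list lay near the share of all genes. Tcf7l1, a TCF that mostly represses, rose from 1.31 to 7.30 CPM (2.38 ± 0.29), and Tcf7l2, the main liver TCF, rose from 42.5 to 51.3 CPM (0.33 ± 0.09). Bcl9l, a coactivator (-0.71 ± 0.13), Tle1, a corepressor (-0.62 ± 0.09), and Gsk3b, the kinase that marks beta-catenin for breakdown (-0.32 ± 0.09), were lower periportally, as was Tnks (-0.98 ± 0.33), which fell outside the naming rule and was named after its value was seen. Tcf7l2 did not pass with library size alone (0.24, adjusted p = 0.0649), between outer eighths (0.31, 0.120) or in cells of at least 3000 UMIs (0.25, 0.380), and Gsk3b did not pass in the latter settings (-0.30, 0.124 and -0.33, 0.167). Of 15 target genes of beta-catenin 11 were tested, and 10 were higher pericentrally and 0 periportally by edgeR (median -3.10). Slc1a2, a glutamate transporter, fell from 201 to 1.53 CPM towards the portal end (-6.58 ± 0.19), followed by Cyp2a5 (-4.98 ± 0.17), Slc13a3 (-4.93 ± 0.38) and Tbx3 (-4.66 ± 0.24). These targets thus lay opposite to the inhibitor Ctnnbip1. Several pericentral landmarks that ordered the cells, such as Cyp2e1, are themselves known targets of beta-catenin.

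**Figure D5:**
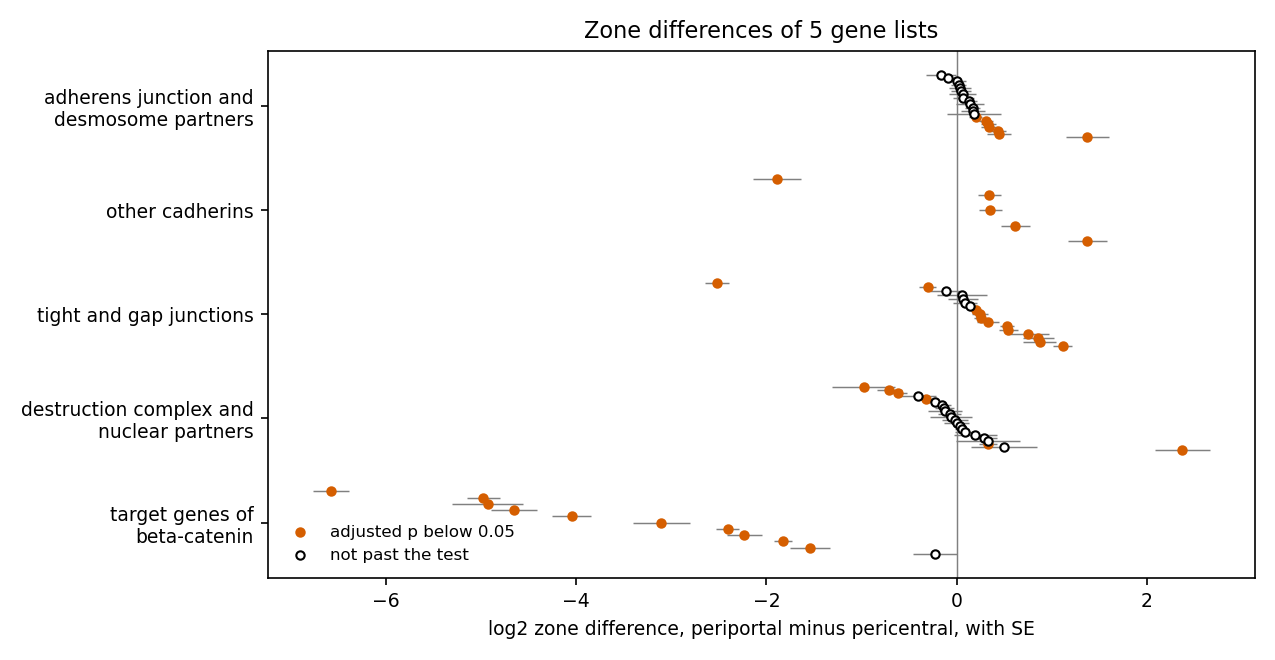
Log2 difference between the periportal and pericentral zones (x axis, with SE) of every tested gene in 5 lists (y axis), 1 point per gene. Filled points passed an adjusted p of 0.05 and open points did not. Most junction genes that passed lie right of 0, with Cldn2 at -2.52, Clstn3 at -1.89 and Pard3 at -0.30 on the other side, and 10 of 11 target genes of beta-catenin lie far to the left.

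Among the same lists, rhythms passed in 7 genes. They were 5 of the 17 tested tight and gap junction genes, 1 of 20 adherens junction and desmosome partners and 1 of 5 other cadherins. In the 2 lists around beta-catenin 0 of 22 and 0 of 11 passed. Over all genes tested the share was 5.13%. The ZT12 mean was the lowest of the 4 for Cldn1 (14.0 CPM, against 77.9 at ZT0 and 70.5 at ZT18; amplitude 1.30, fitted peak ZT 22.9, adjusted p = 0.00381, edgeR). Cgn (cingulin, a tight junction adaptor) had an amplitude of 0.88 (peak ZT 20.7, adjusted p = 0.00370), Tjp3 0.86 (ZT 22.9, 0.0229) and Cxadr 0.63 (ZT 20.4, 0.0334). Celsr1 peaked at ZT 19.2 (amplitude 0.99, adjusted p = 0.0188) and Ppl at ZT 14.4 (0.80, 0.0416). The fitted peaks of Cldn1, Cgn, Tjp3, Cxadr and Celsr1 fell between ZT 19.2 and ZT 22.9, as did that of Cdh1 at ZT 20.8. For all of them ZT18 cannot be told apart from index column 4. Several of these calls depended on which libraries were kept: without replicate A of ZT18 adjusted p rose to 0.0866 for Celsr1, 0.107 for Cxadr and 0.0963 for Ppl, while Cldn1, Cgn and Tjp3 stayed past the threshold (0.00597, 0.0129 and 0.0476). Over the 10 fits that left out 1 library, Ppl lost its call in 8, Cxadr in 6, Celsr1 in 3, Tjp3 in 1 and Cldn1 and Cgn in 0. Tjp3 lost its call without replicate B of ZT12 (0.0920), and Cxadr lost its call with library size alone (0.0575).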

How the data were processed

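The deposited files are UMI counts per gene and cell, 1 table per library, made by the authors; the submitters' processing notes name Cell Ranger, mm10 and hg19, and the steps between are not given in the sources used here. In the tables cells hold 1048 to 10001 UMIs and 8.70% to 34.4% mitochondrial UMIs. The 7 genes, the lists and the tests were chosen with earlier results of these data known. Counts were summed per library and zone and tested with edgeR 4.0.16 (quasi-likelihood, TMM scaling, genes whose mean reached 3 CPM, Benjamini-Hochberg adjustment over all of them, threshold 0.05); zone tests had the library as a block and left the 16 landmarks out of counts. DESeq2 1.42.0 and limma 3.58.1 were alternatives. The test code, tried on simulated counts over 8907 genes, recovered 95.5% of genes changed by 1 log2 unit between zones and 89.6% of those with a rhythm of amplitude 1, but 62.7% and 13.4% at a size of 0.5, and 4.5% of such differences among times. Named genes were, per list and direction, up to 4 called genes with the largest zone difference and the same sign in at least 9 libraries, plus rhythmic ones, of which 1 is not reported here. Of the listed symbols 5 were matched through older names. No doublet caller was run; leaving out the 5% deepest cells was an alternative. Cell names are serial numbers, so shared barcodes were not analysed here. Every column of the tables belonged to a labelled sample.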

Additional observations from a re-analysis of the deposited data

Results flagged for a closer look

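Over the 10 libraries, 1 library stood apart from the others for 2 of the 8 zone quantities checked, and chance flags about 1 in 20 such groups. Replicate A of ZT6 had a Ctnnb1 zone difference of -0.57 on the log2 scale (1 CPM added), with the other 9 between -0.19 and 0.19. Replicate A of ZT12, the library with the fewest cells and no Ctnnbip1 UMI in its pericentral zone, had a Ctnnbip1 difference of 6.29, with the next highest at 4.03. Both ZT6 libraries had a negative and both ZT18 libraries a positive zone difference of Ctnnb1, and the means differed by -0.44 (ZT6 minus ZT18). The same held for Ctnnd1, by -0.81. These 2 contrasts were not tested on their own; the test of any zone difference between the 4 times gave adjusted p of 0.912 for Ctnnb1 and 0.947 for Ctnnd1 (edgeR).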

How the results depend on the processing

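The zone differences of Cdh1, Cdh2 and Ctnnbip1 kept their direction and stayed past the threshold under all alternatives run, as did the Cdh1 to Cdh2 ratio, while those of Jup and Ctnna1 kept their direction but missed the threshold under the settings named with them. Counts over all genes moved more: zone calls fell from 2184 to 1204 in cells of at least 3000 UMIs, where fewer cells are summed. Rhythm calls (457) were 283 with a mean of at least 20 CPM, where fewer genes are tested, 791 with DESeq2, 255 in the pericentral zone and 697 with the landmark ratio as a covariate, and calls of any difference among times (586) were 381, with at least 20 CPM, 294 in the pericentral zone and 232 without both ZT18 libraries; the cause of the others was not tested. Differences by time (6 calls) were 10 with library size alone and 2 with DESeq2. Leaving out 1 library gave 226 to 468 rhythm calls, 249 to 662 of any difference and 0 to 43 by time. With the letter as a replicate block there were 749 rhythm calls and 989 of any difference, the latter with Ctnnbip1 (adjusted p = 0.0430). The labels do not say that letters pair libraries, and correlations of same-letter deviations ran from -0.117 to 0.626. The highest, 0.284, 0.512 and 0.626, joined ZT0 and ZT12 for A, B and C, which share an index column by letter. Correlations between different letters ran from -0.42 to 0.117. The main tests of time had no such block. The steps and settings added after seeing the data, which include common cut points, single zones, marker exclusions and leaving out both C replicates, are among the alternatives run. Depth limits single cells: at 1500 UMIs most cells hold no UMI of either cadherin.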
